A study of Mus musculus with 36 samples.

Results

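The genes of respiratory complexes II to V were followed in mouse liver. They were taken by name from the count table: every gene whose name begins with Uqcr, with Cox4 to Cox8 or with Atp5, together with Sdha, Sdhb, Sdhc, Sdhd, Cyc1 and Cycs, with names marked as pseudogenes left out. The rule found 50 genes of the 38283 in the table, and 43 of them were among the 13945 genes with enough counts to be tested. Complex II was covered by 4 genes (4 tested), complex III by 9 (9 tested), cytochrome c by 1 (1 tested), complex IV by 18 (12 tested) and complex V by 18 (17 tested). The 7 genes left untested were Cox4i2, Cox6a2, Cox6b2, Cox7b2, Cox8b, Cox8c and Atp5l2. Of the 50 genes, 46 encode subunits or the carrier cytochrome c. The other 4 are Cox7a2l, a factor of supercomplex formation, Atp5s, a coupling factor, Atp5sl, which is now named Dmac2 and acts in the assembly of complex I, and Atp5l2, which GENCODE lists as a processed pseudogene.

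Liver RNA came from male C57Bl/6J mice aged 16 weeks, either wild type or heterozygous for an allele that truncates Pik3r1 at a tyrosine codon near its end (WT/Y657*). Pik3r1 encodes p85alpha and its shorter forms, the regulatory subunits of the insulin-responsive phosphoinositide 3-kinase. Each genotype was taken in 3 states, with 6 mice per group: on chow (fed), without food for 16 h (fasted), and back on chow for 6 h after such a fast (refed). All 36 mice were of 1 strain background and 1 diet, the mutant allele was constitutive and so present in all tissues, and every mouse gave 1 library. The study asked how the truncated allele changes metabolism, and the comparisons below ask how these genes differed between genotypes in each state and between states in each genotype.

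In the respiratory chain, complex II (succinate dehydrogenase) and complex I pass electrons through ubiquinone to complex III, which reduces cytochrome c, and complex IV (cytochrome c oxidase) hands those electrons to oxygen. Complex V (ATP synthase) uses the proton gradient built by complexes I, III and IV to make ATP. All of complex II and most subunits of the others are encoded in the nucleus, a small core is encoded in mitochondrial DNA, and liver relies on this chain to oxidise the fatty acids that reach it during fasting.

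Libraries held between 8839488 and 19542775 counts, with a median of 13596665.5. Pik3r1 itself, whose counts sum both alleles and so do not check the genotype, had medians of 132 and 133 CPM (the count of a gene relative to the total of its library, after TMM scaling) in fed wild-type and WT/Y657* mice, 94.2 and 99.0 in fasted mice, and 123 and 151 in refed mice. Hepatocyte markers summed to between 43520 and 91680 CPM in every library, and skeletal muscle markers to at most 1.93 CPM. In fasted mice stellate cell markers summed to between 301 and 361 CPM in wild-type and between 326 and 473 in WT/Y657* mice. By the test and threshold given below, 1 of 4 stellate cell and 1 of 4 sinusoidal endothelium markers were higher in fasted WT/Y657* mice. Among hepatocyte markers 1 of 5 was lower, and no marker of the other cell types listed passed. Over all genes 6.43% were higher and 6.63% lower. The part of these markers in the results was not tested. Fasted and refed mice came from a low and a high run of mouse numbers, 3 of each per group, and fed mice from neither run, so mouse number and the fed state cannot be told apart. In whole liver, fewer cells of a type and less RNA per cell cannot be told apart.

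Levels were first ordered per length, as RPKM (CPM divided by transcript length in kilobases), in fed wild-type mice. The F1 subunits of complex V, where ATP is made, led the order: Atp5b (the beta subunit) stood at 631 ± 39.9 RPKM (mean ± SD, n = 6 mice) and Atp5a1 (the alpha subunit) at 433 ± 38.1. Cox4i1, the ubiquitous form of the largest nuclear subunit of complex IV, followed at 390 ± 15.8. Atp5g3, one of the genes for the ring-forming subunit c, stood at 300 ± 32.1, Uqcr11 at 288 ± 29.2 and Uqcrq at 281 ± 21.1, and these neighbours did not differ beyond their spread. Sdha, the flavoprotein of complex II, was at 197 ± 18.3 and its iron-sulphur partner Sdhb at 152 ± 21.6. Cycs stood at 13.9 ± 1.82.

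The paired tissue forms of complex IV subunits were far apart in level. The heart and muscle forms Cox6a2 and Cox8b reached at most 0.280 CPM in any mouse, while their liver forms Cox6a1 and Cox8a had fed wild-type medians of 151 and 133 CPM. Cox4i2, the lung and oxygen-regulated form, reached at most 0.210 CPM. Cox7a1, the heart form, had a median of 0.751 CPM beside 116 for Cox7a2, the liver form. Cox8c had no count in any library, and Cox7b2 and Atp5l2 had 1 count each over all 36.

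The clearest difference lay between genotypes after the fast. Of the 43 tested members, 20 were higher and 1 was lower in fasted WT/Y657* mice in edgeR's quasi-likelihood test at an adjusted p under 0.05 (called, below), with Benjamini-Hochberg adjustment over all genes, whereas 6.43% of all genes tested were called higher and 6.63% lower. The median log2 fold change was 0.24 over the members and 0.00 over all genes, and 33 of the 43 members were above 0. For 12 members every WT/Y657* mouse lay above every wild-type mouse, as did 2.55% of all genes tested, and for Sdha every one lay below, as did 2.48%. By complex, 7 of 12 tested members of complex IV were higher with a median of 0.28, 4 of 9 of complex III with 0.21, 7 of 17 of complex V with 0.20, and in complex II 1 was higher and 1 lower with a median of -0.05. All 12 tested members of complex IV had a value above 0.

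**Figure D1:**
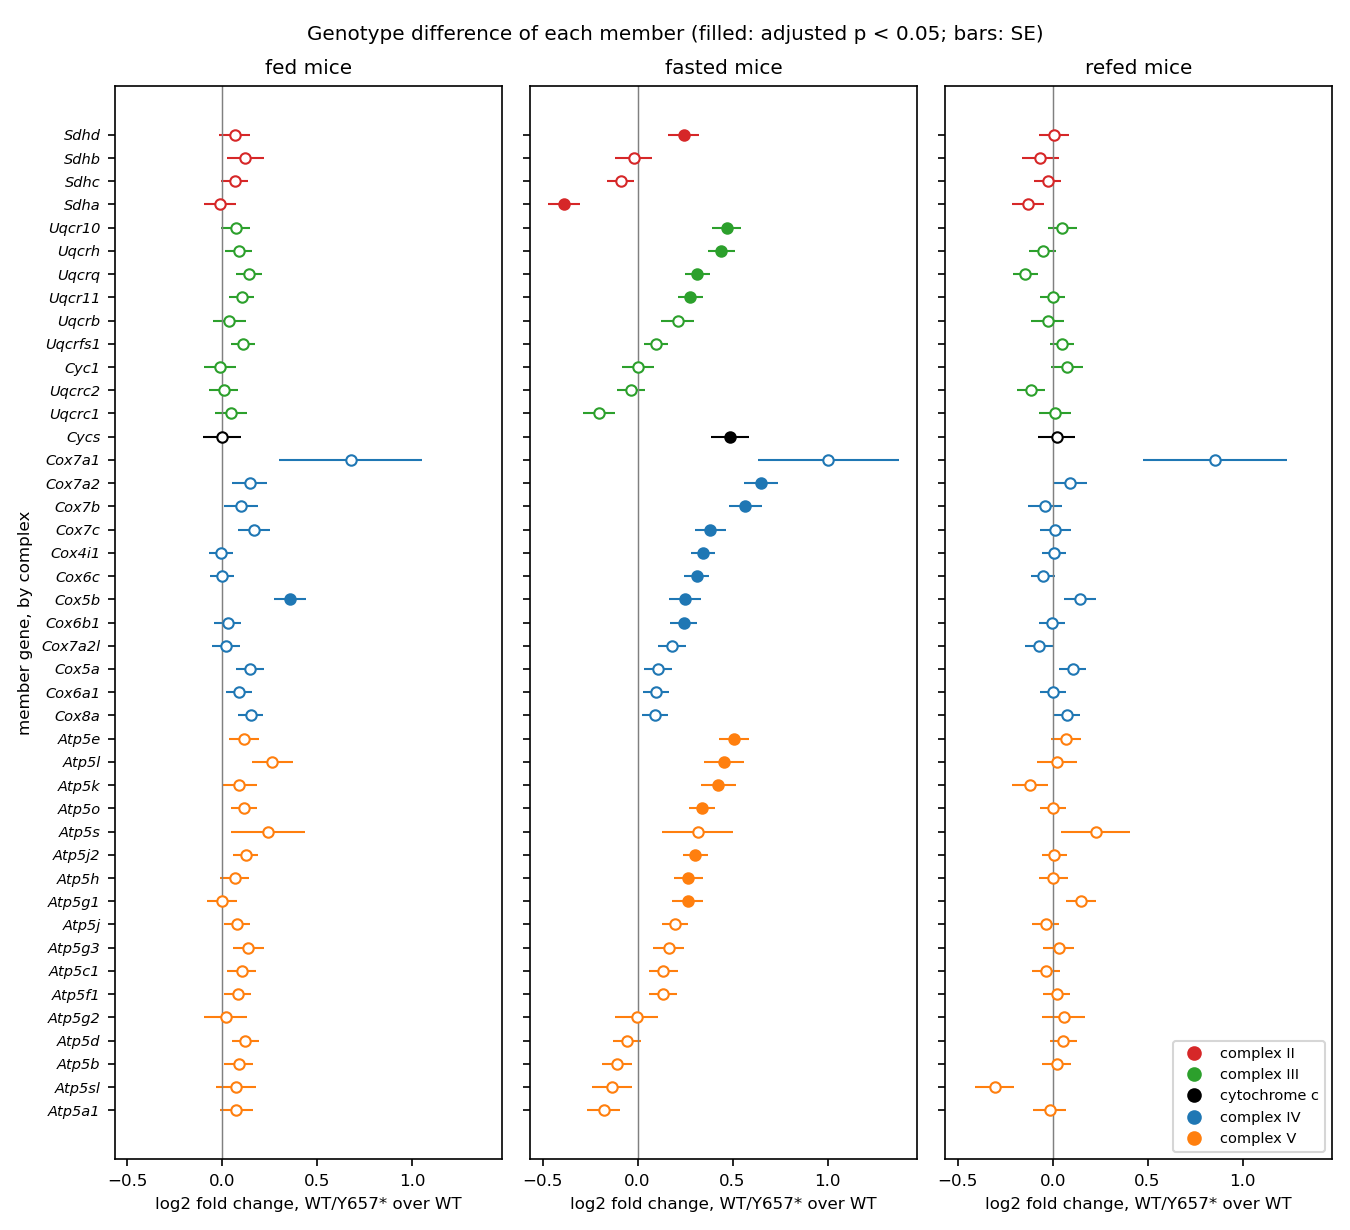
Log2 fold change of WT/Y657* over wild-type mice for each of the 43 tested members (rows, coloured and grouped by complex), in fed, fasted and refed mice (6 against 6 mice each), with bars for the standard error and filled points for an adjusted p under the threshold. In fasted mice 20 members are filled to the right of 0 and Sdha to the left, in fed mice only Cox5b is filled, and in refed mice none.

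Complex II, which links the tricarboxylic acid cycle to the chain, split by subunit. Sdha, which oxidises succinate, ranged from 462 to 571 CPM with a median of 529 in fasted wild-type mice and from 325 to 455 with a median of 402 in fasted WT/Y657* mice. Every WT/Y657* mouse was below every wild-type mouse, and the log2 fold change was -0.39 (standard error 0.084, adjusted p = 0.0019). Sdhd, a membrane anchor, ranged from 162 to 220 CPM (median 191) in wild-type and from 196 to 259 (median 225) in WT/Y657* mice. Its groups overlapped, and it rose by 0.24 (standard error 0.081, adjusted p = 0.0388). Sdhb had a value of -0.02 (adjusted p = 0.924) and the other anchor, Sdhc, of -0.09 (adjusted p = 0.453), so the 4 subunits of 1 complex did not share a direction. Sdhd was not called without any 1 of 7 mice, with adjusted p of 0.0607 to 0.107.

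In complex III the 4 called members were small subunits without a redox centre. Uqcr10, a very small subunit next to cytochrome c1, ranged from 66.2 to 87.5 CPM (median 81.0) in fasted wild-type and from 101 to 119 (median 108) in WT/Y657* mice. Uqcrh, the hinge protein between cytochrome c1 and cytochrome c, ranged from 108 to 137 CPM (median 120) in wild-type and from 145 to 177 (median 166) in WT/Y657* mice. Uqcrq, which binds near cytochrome b, ranged from 94.4 to 115 CPM (median 106) and from 120 to 135 (median 132). None of these 3 genes had groups that overlapped. The log2 fold changes were 0.47 (adjusted p = 0.000114) for Uqcr10, 0.44 (adjusted p = 0.000123) for Uqcrh and 0.31 (adjusted p = 0.00151) for Uqcrq, with standard errors of 0.066 to 0.077. Uqcr11 was also called. The catalytic subunits were not: cytochrome c1 (Cyc1) was at 0.00 (adjusted p = 0.992) and the Rieske iron-sulphur protein (Uqcrfs1) at 0.10 (adjusted p = 0.349), and the core proteins Uqcrc1 and Uqcrc2, named here after their values were seen, stood at -0.20 (adjusted p = 0.0988) and -0.03.

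Cytochrome c, the soluble carrier between complexes III and IV, ranged from 29.2 to 44.9 CPM (median 38.8) for Cycs in fasted wild-type and from 48.0 to 65.7 (median 52.7) in WT/Y657* mice. The groups did not overlap, and the log2 fold change was 0.48 (standard error 0.10, adjusted p = 0.00124).

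Complex IV held the largest called change of any member. Cox7a2 ranged from 97.0 to 129 CPM (median 108) in fasted wild-type mice and from 148 to 206 (median 172) in WT/Y657* mice. Cox7b, another small membrane subunit, ranged from 119 to 177 CPM (median 144) and from 184 to 271 (median 210). Cox4i1 ranged from 291 to 331 CPM (median 323) and from 381 to 438 (median 394). All 3 were without overlap, with log2 fold changes of 0.65 (adjusted p = 1.18e-05), 0.57 (adjusted p = 5.46e-05) and 0.35 (adjusted p = 0.000328) and standard errors of 0.063 to 0.090. Cox7c (0.38) and Cox6c (0.31) were called without overlap, and Cox5b (0.25) and Cox6b1 (0.24) with overlap. Cox6a1 (0.10), Cox8a (0.09) and Cox7a2l (0.18, adjusted p = 0.0983) were not called. Cox7a1 had the widest estimate, 1.005 with a standard error of 0.373 (adjusted p = 0.069), at medians of 0.668 and 1.52 CPM.

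In complex V the called members were small subunits, and the catalytic pair was not called. Atp5e, the epsilon subunit of the central stalk, ranged from 79.1 to 94.7 CPM (median 86.3) in fasted wild-type and from 113 to 139 (median 118) in WT/Y657* mice, without overlap. Its log2 fold change was 0.51 (standard error 0.079, adjusted p = 5.41e-05). Atp5k, the membrane subunit e, ranged from 69.3 to 93.6 CPM (median 78.3) and from 86.5 to 122 (median 108) and changed by 0.43 (adjusted p = 0.00205), while Atp5o, a stalk subunit that confers oligomycin sensitivity, ranged from 99.3 to 134 CPM (median 113) and from 131 to 169 (median 144) and changed by 0.34 (adjusted p = 0.00104). The groups overlapped for both. Of the 3 genes for subunit c, Atp5g1 was called (0.26, adjusted p = 0.0233), and Atp5g3 (0.17) and Atp5g2 (0.00) were not. Atp5a1 (-0.18, adjusted p = 0.182) and Atp5b (-0.11, adjusted p = 0.397), named here after their values were seen, were not called, and neither were the factors Atp5s (0.32) and Atp5sl (-0.13).

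**Figure D2:**
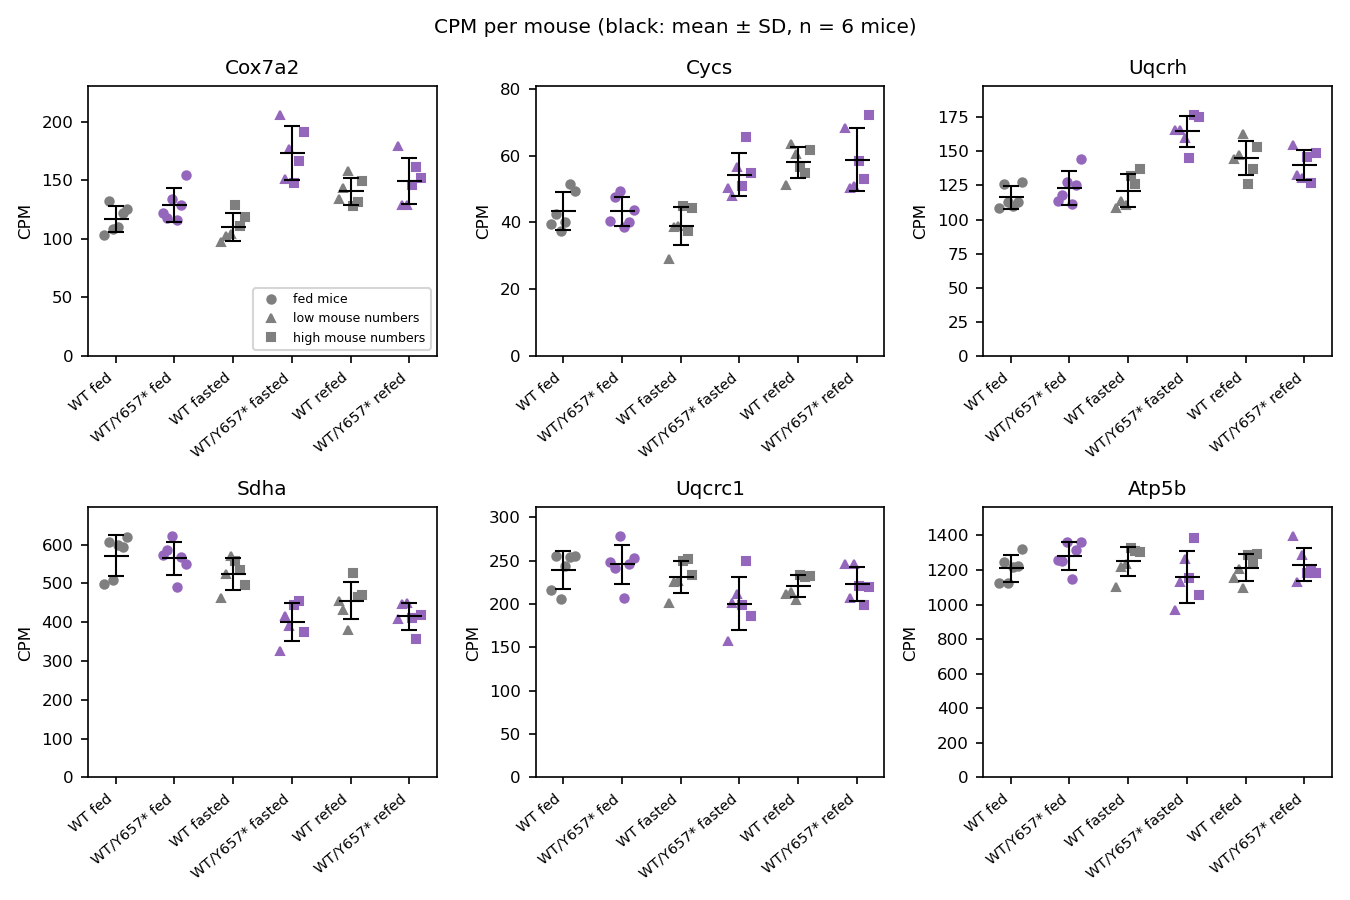
CPM of 6 members in each mouse, in the 6 groups (grey wild type, purple WT/Y657*), with the mean and SD in black and with symbols for fed mice and for low and high mouse numbers. For Cox7a2, Cycs and Uqcrh the 6 fasted WT/Y657* mice lie above the 6 fasted wild-type mice, for Sdha they lie below, and for Uqcrc1 and Atp5b, chosen after their values were seen, the groups overlap.

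Promoter sequences were taken from RefSeq for 35 members, 38 promoters of 300 bases each, 250 before and 50 after the transcription start, on build GRCm38.p6. They are shown because 20 members were called higher in the same comparison, and because NRF1, GABP, ERR and YY1 are known to act at promoters of respiratory genes. The letters searched on both strands were GCGCNTGCG for NRF1 (N is any base, and matches may overlap), CCGGAAG for GABP and other ETS factors, TCAAGGTCA for ERR and AAGATGGCG for YY1. The NRF1 letters were in 15 of 38 member promoters (39.5%) and in 6.31% of all 32851 promoters, the GABP letters in 12 (31.6%) and 8.86%, those of ERR in 2 (5.26%) and 0.423%, and those of YY1 in 2 (5.26%) and 1.40%. All promoters means those of 27025 genes, tested here or not, and the shares among tested genes alone were not computed. Of the 17 promoters of 17 members called higher in fasted WT/Y657* mice, 8 (47.1%) held the NRF1 letters and 8 the GABP letters. Of the 17 promoters of members not called, 6 (35.3%) and 4 (23.5%) did. The latter belong to only 14 genes: Atp5c1, Atp5d and Atp5j entered with 2 promoters each, 1 of which held no match. The shares per promoter are therefore not shares per gene. In complex IV 1 of 13 promoters held the NRF1 letters, and that of Cox7a2 none of the 4. A match is a run of letters and not a site shown to be bound.

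The 4 promoters below are those of 3 members called higher and the 1 called lower in fasted WT/Y657* mice, and the capitals mark the NRF1 or GABP letters. Cycs is on the minus strand at chr6:50566520-50566819, with the NRF1 letters from 61 bases before its start. Uqcr10 is on the minus strand at chr11:4704295-4704594, with its match from base 2 after the start. Atp5e is on the minus strand at chr2:174464052-174464351, with the GABP letters from 102 bases before the start. Sdha is on the minus strand at chr13:74350191-74350490, with the NRF1 letters from 97, 54 and 9 bases before the start. Uqcrc1 and Cox6a1, which were not called between fasted genotypes, held 3 NRF1 matches each, of which 2 overlap as 1 stretch read on both strands. Cox6a1 also held the GABP letters.
Cycs: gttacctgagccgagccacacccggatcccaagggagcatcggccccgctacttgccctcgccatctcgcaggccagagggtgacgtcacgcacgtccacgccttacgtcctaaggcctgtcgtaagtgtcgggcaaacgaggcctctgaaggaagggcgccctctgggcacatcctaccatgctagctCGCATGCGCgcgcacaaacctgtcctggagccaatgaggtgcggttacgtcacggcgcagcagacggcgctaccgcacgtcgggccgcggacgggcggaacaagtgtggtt
Uqcr10: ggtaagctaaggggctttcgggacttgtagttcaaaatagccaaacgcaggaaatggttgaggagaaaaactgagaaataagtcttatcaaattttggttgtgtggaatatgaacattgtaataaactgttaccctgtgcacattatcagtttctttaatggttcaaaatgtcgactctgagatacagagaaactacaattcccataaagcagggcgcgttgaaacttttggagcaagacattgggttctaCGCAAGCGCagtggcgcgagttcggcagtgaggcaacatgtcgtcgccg
Atp5e: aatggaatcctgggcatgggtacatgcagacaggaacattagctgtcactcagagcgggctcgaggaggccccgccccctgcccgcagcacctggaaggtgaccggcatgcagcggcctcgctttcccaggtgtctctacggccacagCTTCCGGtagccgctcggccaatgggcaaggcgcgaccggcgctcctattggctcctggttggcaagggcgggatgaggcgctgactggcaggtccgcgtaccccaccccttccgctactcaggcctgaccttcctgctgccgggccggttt
Sdha: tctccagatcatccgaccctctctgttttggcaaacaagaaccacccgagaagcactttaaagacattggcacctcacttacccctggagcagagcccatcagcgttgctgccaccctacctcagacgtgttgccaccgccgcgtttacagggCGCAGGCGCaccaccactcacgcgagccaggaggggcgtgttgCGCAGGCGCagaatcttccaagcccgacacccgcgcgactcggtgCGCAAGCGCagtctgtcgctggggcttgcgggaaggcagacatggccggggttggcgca

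Read within each run of mouse numbers, with 3 mice against 3, the sign of all 21 called members was the same as in the pooled fit. These members were picked by the pooled fit of the same mice, so agreement in sign was largely built in. Of them, 8 were called among low-numbered and 4 among high-numbered mice. Cox7a2 was at 0.84 (adjusted p = 0.0129) among low-numbered and 0.51 (adjusted p = 0.0249) among high-numbered mice. Leaving out each mouse in turn, the fewest calls came without 1 fasted wild-type mouse. Then 16 members were called, and Sdhd, Cox5b, Cox6b1, Atp5g1 and Atp5h were not. The member median was 0.20 without that mouse and 0.24 with it. That mouse was low across the members, with the lowest summed CPM of any mouse, 6508. The other fasted wild-type mice had sums of 7315 to 8292. It was the lowest of its group for the sum of each of complexes II to V, and for Cycs, Cox6a1 and Cox8a.

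Summed over all its members, complex IV ranged from 1226 to 1534 CPM (median 1397) in fasted wild-type and from 1644 to 1877 (median 1719) in fasted WT/Y657* mice, without overlap. The same sums were 1386 and 1399 at the median in fed mice and 1536 and 1556 in refed mice. Complex II had fasted medians of 1002 and 901.1 CPM, complex III of 1272 and 1362, and complex V of 3917 and 3765, and all of these groups overlapped. Within the sum of complex V, Atp5a1 and Atp5b alone had fasted wild-type medians of 1118 and 1270 CPM.

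**Figure D3:**
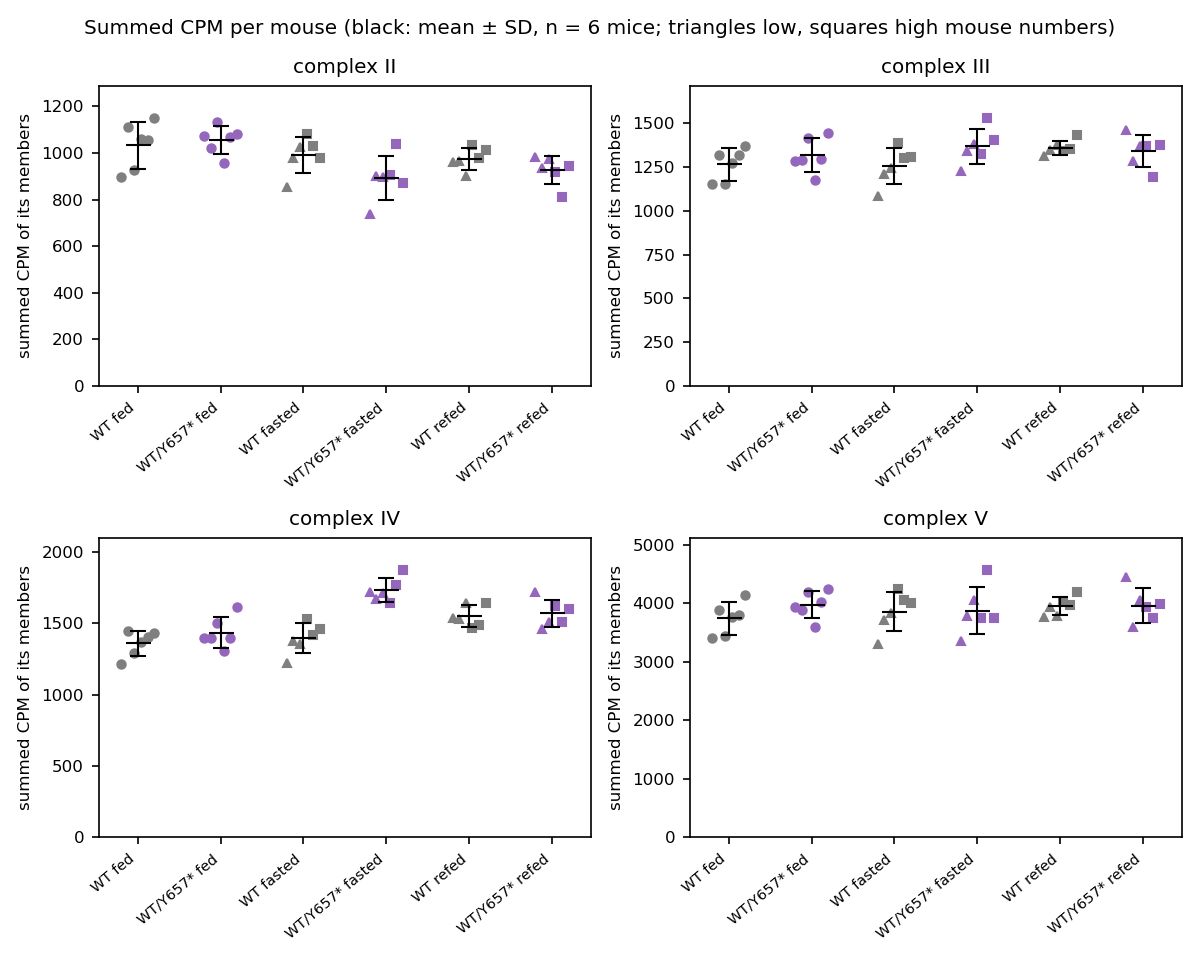
Summed CPM of the members of each complex in each mouse, by group (grey wild type, purple WT/Y657*), with mean and SD in black and with triangles for low and squares for high mouse numbers. Fasted WT/Y657* mice lie above fasted wild-type mice for complex IV, where the lowest is at 1644 and the highest wild-type mouse at 1534, and overlap them for complexes II, III and V.

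The members called in fasted mice were mostly short transcripts. The 20 called higher had a median length of 621.5 nt and 17 of them were under 1000 nt, while the other 23 had a median of 1166 nt with 9 under 1000 nt. Over the 43 members, Spearman's rho of length against fold change was -0.572 in fasted, -0.344 in fed and -0.140 in refed mice, a description across genes that share the libraries. Genes outside the members moved with length as well: among those under 700 nt the fasted median was 0.27 (611 genes, 19.6% called higher) beside 0.31 in the 19 members of that length. From 700 to under 1000 nt it was 0.14 beside 0.25 in 7 members, from 1000 to under 2000 nt 0.03 beside 0.12 in 12, and from 2000 to under 4000 nt -0.02 beside -0.13 in 5. With an offset for length and GC content in the fit, 10 of the 21 members stayed called: Cox7a2 (0.48), Cycs (0.42), Cox7b (0.39), Atp5e (0.27), Uqcr10 (0.24), Cox4i1 (0.23), Uqcrh (0.23), Atp5o (0.23), Atp5j2 (0.19) and Sdha (-0.38). The member median then stood at 0.09. Cycs, among those that stayed called, has a length of 3123 nt by the GENCODE transcript chosen, and which of its forms the liver expressed was not tested.

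**Figure D4:**
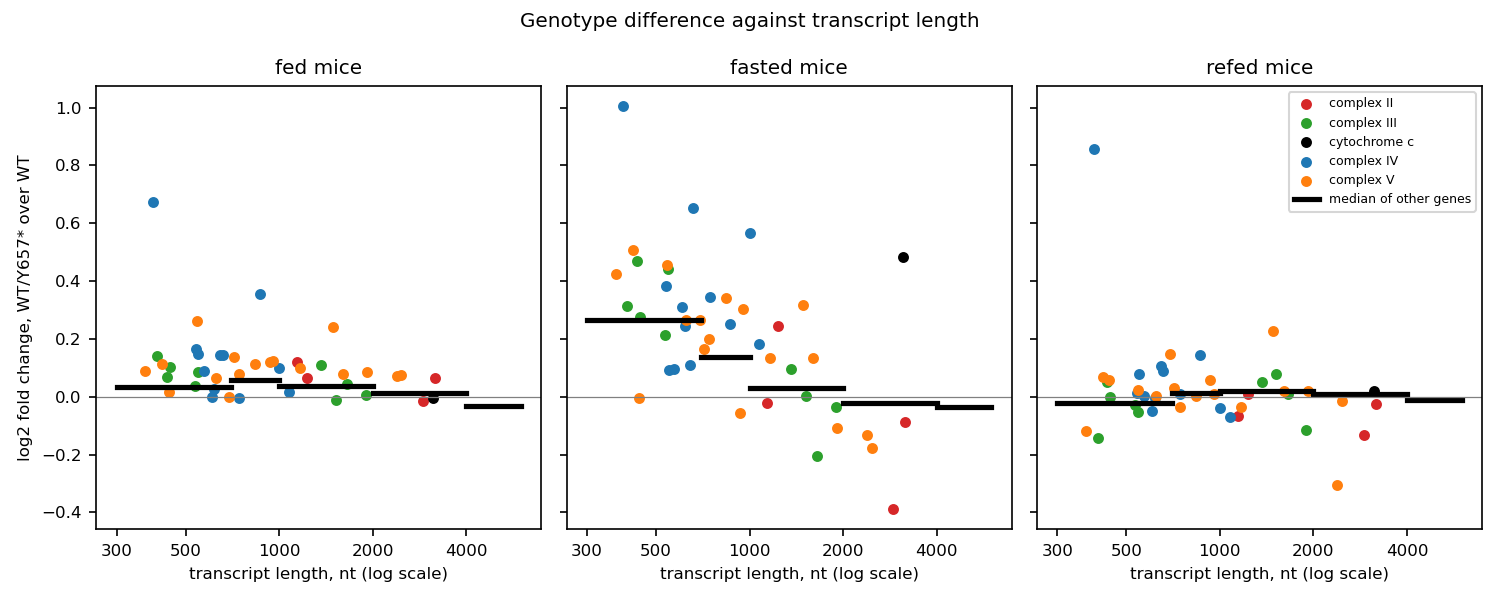
Log2 fold change of WT/Y657* over wild-type mice for each tested member against transcript length (log axis), in fed, fasted and refed mice, coloured by complex, with black lines for the median of all other genes in 5 length ranges. In fasted mice the line stands at 0.27 for genes under 700 nt and at -0.04 for those of 4000 nt or more, and Cycs at 3123 nt lies at 0.48.

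Some members share sequence with copies elsewhere. Of all the stretches of 50 bases in a transcript, the length of the reads, 100% occurred elsewhere for Atp5g2, 68.5% for Atp5l, 56.2% for Atp5g1, 53.0% for Cox7c, 50.5% for Atp5h, 43.2% for Uqcrb, 35.5% for Atp5o and 28.2% for Cycs. For Atp5o the share includes a second GENCODE record of the same name, which overlaps it on the same strand and is not a copy elsewhere. The 14 members with over 10% shared, Atp5o among them, had a fasted median of 0.27 with 9 called. The other 29 had a median of 0.16 with 12 called. The locus printed in the table was over 2 times as wide as the GENCODE locus for 8 members, Cox4i1 (4435365 against 5986 bases), Cox6c and Atp5o among them, and whether their counts hold reads of neighbouring genes was not tested.

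In fed mice 1 member was called between genotypes. Cox5b, the zinc-binding subunit of complex IV, ranged from 47.0 to 75.8 CPM (median 61.7) in wild-type and from 76.8 to 88.2 (median 80.2) in WT/Y657* mice, without overlap. It rose by 0.35 on the log2 scale (standard error 0.084, adjusted p = 0.0199), and was the 1 member called higher, with none called lower, beside 1.21% and 1.15% of all genes. That call was lost without any 1 of 3 fed mice, 1 wild-type and 2 WT/Y657*, with adjusted p of 0.058 to 0.072. Of the stretches of 50 bases in Cox5b, 25.9% also occur in Gm11273, and the part of that gene in the counts was not tested. The fed member median was 0.09, with 37 of 43 above 0, and 0.01 over all genes. When mice of adjoining numbers were fitted as blocks, no member was called and the median was 0.01. The lowest-numbered block held only wild-type and the highest only WT/Y657* mice. That fit therefore compared genotypes only within the middle block, on fewer mice. Fitted to the 2 fed groups alone, none was called (median 0.08). With an offset for length and GC content Cox5b stayed called with a median of 0.03. In these mice Kupffer cell markers summed to 177 to 245 CPM in wild-type and 169 to 598 in WT/Y657* mice, stellate cell markers to 247 to 360 and 342 to 478, and hepatocyte markers to 58590 to 73680 and 43520 to 74590. None of 5 Kupffer cell markers was called, all 5 lying above 0, 1 of 4 stellate cell markers was called, and all 5 hepatocyte markers lay below 0 without a call. Their part in the fed values was not tested. By library size alone 4 members were called and the median was 0.19, beside 0.11 over all genes.

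In refed mice no member was called by edgeR's quasi-likelihood test in either direction, as for all but 0.0287% of all genes tested. DESeq2, edgeR's likelihood ratio test and limma-voom called none as well, and 3 members had an unadjusted p under 0.05. The median was 0.01. The smallest p values belonged to Atp5sl (-0.30, adjusted p = 0.325), Cox7a1 (0.86, adjusted p = 0.444), Uqcrq (-0.14, adjusted p = 0.481), Atp5g1 (0.15, adjusted p = 0.561) and Cox5b (0.14, adjusted p = 0.604).

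Fasting was then set against feeding within each genotype. These comparisons share the fasted groups with those above. In wild-type mice 3 members were higher and 1 lower in the fasted state, beside 14.5% and 17.5% of all genes, with a median of 0.02. Atp5sl rose by 0.44 (adjusted p = 0.00129) with no overlap between groups, Atp5s by 0.52 (adjusted p = 0.0358) and Cox7c by 0.23 (adjusted p = 0.0369), and Atp5g1 fell by 0.23 (adjusted p = 0.0253). Uqcrfs1 (0.13), Uqcrq (-0.12) and Cyc1 (-0.08) were not called. Of the 4, only Atp5sl was called without each mouse in turn.

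In WT/Y657* mice 16 members were higher and 3 lower in the fasted state, beside 15.2% and 17.7% of all genes, with a median of 0.15. With the length and GC offset the split was 14 higher and 5 lower and the median 0.07. Cox4i1 rose most surely: fed mice ranged from 259 to 345 CPM (median 280) and fasted mice from 381 to 438 (median 394), a change of 0.48 (adjusted p = 2.21e-07). Cox7c (0.45), Cox7a2 (0.43), Cox7b (0.42), Uqcrh (0.42), Uqcr10 (0.41), Sdhd (0.37), Atp5e (0.35) and Cycs (0.33) were also called higher. Sdha, whose promoter is printed above, fell by 0.50 (adjusted p = 1.46e-05) from a fed median of 571 CPM to a fasted one of 402, with no overlap, Sdhb by 0.32 (adjusted p = 0.00934) and Uqcrc1 by 0.29 (adjusted p = 0.00603). By library size alone the split was 14 higher and 8 lower.

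The difference of the fasting response between genotypes was called for 8 members, all higher in WT/Y657* mice, beside 2.59% of all genes higher and 1.76% lower. They were Cox7a2 (0.51, standard error 0.127, adjusted p = 0.0167), Cox4i1 (0.35, standard error 0.090, adjusted p = 0.0191), Cox7b (0.47, standard error 0.125, adjusted p = 0.0254), Uqcr10 (0.40, standard error 0.109, adjusted p = 0.0286), Atp5e (0.40, standard error 0.112, adjusted p = 0.0346), Cycs, Uqcrh and Cox6c. By library size alone the split was 1 higher and 1 lower, and with the length and GC offset 2, Cox4i1 and Cox7a2, stayed called. Sdha was at -0.37 (adjusted p = 0.0623). Leaving out single mice left between 2 and 9 members called, and Cox4i1 and Cox7a2 were called each time. Short genes outside the members and the ribosomal proteins moved as well. Under 700 nt their median was 0.23 beside 0.22 in the 19 members of that length. From 700 to under 1000 nt it was 0.07 beside 0.12 in 7 members.

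Refed mice were then set against fasted mice, again with the fasted groups in common. In wild-type mice 13 members were higher and none lower in the refed state, beside 16.5% and 13.7% of all genes, with a median of 0.13. Cycs, whose promoter is printed above, rose from a fasted median of 38.8 CPM to a refed one of 58.5, a change of 0.58 (adjusted p = 2.58e-05) without overlap, followed by Cox7a2 (0.35, adjusted p = 0.00282), Uqcr10 (0.35, adjusted p = 0.000619), Cox7b (0.32, adjusted p = 0.00511), Cox5b (0.30, adjusted p = 0.00543), Uqcrh (0.26) and Uqcrq (0.25). By library size alone 24 were called, and with the length and GC offset 2, Cycs (0.51) and Uqcr10 (0.19). Of the 13, 10 were called among low-numbered mice, where the member median was 0.23, and 1, Cycs, among high-numbered mice, where it was 0.05.

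In WT/Y657* mice 10 members were lower and none higher in the refed state, beside 14.2% of all genes lower and 17.1% higher, with a median of -0.04. Cox7b fell by 0.28 (adjusted p = 0.0122), Cox4i1 by 0.26 (adjusted p = 0.00189) from a median of 394 to one of 332 CPM without overlap, and Uqcrh by 0.23 (adjusted p = 0.0123). Cox6c, Atp5k, Atp5e, Uqcrq, Uqcr11, Atp5o and Atp5sl made up the rest. By library size alone 8 members were higher and none lower, and the median over all genes moved from -0.01 to 0.09 while that of the members moved from -0.04 to 0.06, so the member median was below that of all genes under both scalings. Among high-numbered mice 1 was called (median -0.095) and among low-numbered mice none (median 0.02). Leaving out 1 of 2 fasted WT/Y657* mice gave 5 and 6 calls, and leaving out 1 refed WT/Y657* mouse gave 4.

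The difference of the refeeding response between genotypes was called for 9 members, all lower in WT/Y657* mice, beside 0.595% of all genes higher and 1.46% lower. The 5 with the smallest p were Uqcrq (-0.46, adjusted p = 0.00795), Cox7b (-0.61, adjusted p = 0.008), Uqcrh (-0.49, adjusted p = 0.009), Cox7a2 (-0.56, adjusted p = 0.0147) and Atp5k (-0.55, adjusted p = 0.0219), and with the length and GC offset none was called. The members' median was -0.17. Short genes outside the members and the ribosomal proteins moved as well. Under 700 nt their median was -0.25 beside -0.28 in the 19 members of that length. From 700 to under 1000 nt it was -0.11 beside -0.24 in 7 members. Leaving out single mice left between 4 and 11 members called, and Cox7a2, Cox7b, Uqcrh and Uqcrq were called each time.

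Genes that work beside the members were read from hand-written lists, against the 6.43% of all genes called higher and 6.63% called lower in fasted WT/Y657* mice. Of 37 genes listed by name as subunits of complex I, which feeds the same chain, 20 were higher and none lower in fasted WT/Y657* mice. Their median was 0.23, and Ndufa4 (0.54), Ndufb6 (0.50) and Ndufa1 (0.39) led. Ndufa4 was listed by its name but is now assigned to complex IV, outside the name rule of the members. Of 12 tested genes of mitochondrial DNA, which encode the core of the complexes, 1 was called, mt-Co3 (0.35, adjusted p = 0.0106), a count near that share. Their median was 0.21, and all 12 lay above 0, as did 50.3% of all genes. On fasting, 10 of the 12 were called higher in WT/Y657* mice (median 0.45), beside 15.2% of all genes. In wild-type mice none was, beside 14.5%. Between fasted genotypes, of 28 assembly factors 4 were higher and 1 lower with a median of -0.06. Among them were Coa3 (0.37), an early complex IV factor, and Cox19 (0.42) and Cox17 (0.43), which act in the delivery of copper to complex IV. Usmg5 (0.67) and 2010107E04Rik (0.56), small complex V proteins outside the name rule, were called, and Atpif1 (0.28), its inhibitor, was not.

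Metabolic, regulatory and ribosomal lists were read the same way. Of 14 enzymes of the tricarboxylic acid cycle 1 was lower, Suclg2 (-0.33, adjusted p = 0.00823), with a median of -0.10, again a count near the share over all genes. Of 3 electron transfer flavoprotein genes and 13 nuclear regulators of respiratory genes none was called, the latter with a median of 0.01 and Esrra at 0.26 (adjusted p = 0.117). Cytosolic ribosomal proteins, encoded by short transcripts too, were higher in 70 of 82 with none lower and a median of 0.41.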

How the data were processed

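Livers of 36 male mice were sequenced by single reads of 50 bases from stranded total RNA libraries, per the labels. What the authors deposited is a table of 38283 genes by 36 mice whose values are estimated counts, not normalized. A second deposited table holds their fitted values per condition and was not used. The submitters' notes name Cuffdiff, SAMtools, featureCounts and edgeR without versions and the build mm9, and the label text speaks of human genes, although the loci in the table match GRCm38: of the 36341 genes (94.9%) found in GENCODE M21, 99.7% overlap their locus there. The strand setting of the counting is not given in the sources used here. Coordinates are those of GRCm38, and transcript lengths come from GENCODE M21.

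Of counts above 0, 3.64% were not whole, and all were rounded. In edgeR 4.0.16 (R 4.3.3), filterByExpr over the 6 groups left 13945 genes, TMM gave the scaling, and glmQLFit with robust dispersions was fitted over all 36 libraries with 1 coefficient per group. Contrasts were tested two-sided by glmQLFTest, with Benjamini-Hochberg adjustment across the 13945 genes and a threshold of 0.05. The p-values set each difference between groups against the spread between mice within groups, estimated over all 6 groups and moderated across genes. The script was tested on simulated counts. Spread was shared with a common biological coefficient of variation of 0.181. Standard errors follow from the fold change and its F value. RPKM used TMM-scaled CPM and the GENCODE length.

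Members and lists were chosen with earlier results of these data known. The text names all of complex II, Cycs, Cyc1, all tissue forms and subunit c genes, members of complexes III, IV and V with the 3 smallest p between fasted genotypes and in fasting of wild-type mice, members called in fed or refed mice or the 5 with the smallest p, and 5 for each difference of responses; other lists are named by 3 members. Other names were chosen after their values were seen. Alternatives were DESeq2 1.42.0, the likelihood ratio test, limma-voom (limma 3.58.1), other scalings and filters, fits to fewer groups, subunits only, an offset for length and GC content (mgcv 1.9.3), mouse number as covariate and leaving out each mouse. Fits within low- or high-numbered mice were added after seeing the data.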

Additional observations from a re-analysis of the deposited data

Results flagged for a closer look

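Of 198 groups of 6 mice examined, 8 held a mouse farther from the rest than Dixon's ratio for 6 allows at the 95% level, where chance gives about 1 in 20. They were Sdhd at 202 CPM in 1 fed wild-type mouse (nearest other mouse 166), Cox6a1 at 142 and Cox8a at 113 in 1 and the same fasted wild-type mouse (156 and 139), Cox7a1 at 1.69 in another fasted wild-type mouse (0.814), Cox8a at 165 in 1 refed wild-type mouse (148), Cox7c at 31.6 and Atp5sl at 29.2 in 1 and the same fed WT/Y657* mouse (26.6 and 22.97), and Cox7a2l at 107 in 1 refed WT/Y657* mouse (86.9).

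The response to fasting differed between genotypes, by the test of the difference itself, for 8 members. The differences on the log2 scale, WT/Y657* minus wild type, were 0.51 for Cox7a2, 0.49 for Cycs, 0.47 for Cox7b, 0.40 for Uqcr10, 0.40 for Atp5e, 0.36 for Uqcrh, 0.35 for Cox4i1 and 0.31 for Cox6c. The response to refeeding differed for 9, at -0.61 for Cox7b, -0.56 for Cox7a2, -0.55 for Atp5k, -0.49 for Uqcrh, -0.46 for Uqcrq, -0.44 for Atp5e, -0.42 for Uqcr10, -0.36 for Cox6c and -0.34 for Cox4i1. Both differences draw on the same fasted mice.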

How the results depend on the processing

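With library size alone as the scaling, 4 members were called in fed mice (median 0.19), 24 on refeeding of wild-type mice, 2 for the difference of fasting responses and 5 for that of refeeding responses, and the median on refeeding of WT/Y657* mice turned to 0.061, beside 0.09 over all genes. With no filter on low counts the counts were 2 on fasting of wild-type mice, 5 on refeeding of WT/Y657* mice, 2 and 5 for the differences of responses. With the length and GC offset they were 10 in fasted mice (median 0.085), 2 on refeeding of wild-type mice (0.014), and 2 (0.019) and 0 (-0.077) for the 2 differences. With subunits and cytochrome c only, 2 were called on fasting of wild-type mice. Fitted to its own groups or with blocks of mouse numbers, the fed comparison called 0 (median 0.08 and 0.013). Only the middle block held both genotypes. Within low-numbered mice the counts were 8 in fasted mice and 0 on refeeding of WT/Y657* mice, with a median of 0.23 on refeeding of wild-type mice (0.05 within high-numbered mice), and within high-numbered mice 4 in fasted mice, 1 and 1 on refeeding of either genotype. Each smaller fit has fewer mice. Otherwise the cause was not tested.

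Leaving out each mouse in turn gave 16 to 23 calls in fasted mice (median 0.20 to 0.28), 0 to 1 in fed (0.06 to 0.11), 0 to 0 in refed (-0.02 to 0.03), 2 to 5 on fasting of wild-type (-0.02 to 0.05), 17 to 23 of WT/Y657* mice (0.13 to 0.19), 9 to 17 on refeeding of wild-type (0.09 to 0.18), 4 to 12 of WT/Y657* mice (-0.07 to -0.02), 2 to 9 for the difference of fasting responses (0.12 to 0.19) and 4 to 11 for that of refeeding responses (-0.25 to -0.14). No paired analysis was possible because mouse numbers are not shared between groups. Over the 9 comparisons there were 85 called values of members, and of 2046 alternative values of them none reversed sign and 393 lost the call. The alternatives reuse the mice that gave the calls, so agreement in sign was largely built in. Depth limits the lowest members, which were not tested.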

Other observations

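Cox6b2, the testis form of a complex IV subunit, was under the filter on low counts and was looked at after its values were seen. Its counts summed over 6 mice were 4 in fed wild-type, 2 in fed WT/Y657*, 11 in fasted wild-type, 46 in fasted WT/Y657*, 25 in refed wild-type and 44 in refed WT/Y657* mice. Fasted wild-type mice lay at 0 to 0.361 CPM and fasted WT/Y657* mice at 0.427 to 0.776. In a fit with no filter it was higher between fasted genotypes by 2.02 on the log2 scale (standard error 0.605, adjusted p = 0.0335), at counts that leave the size uncertain.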
